A study of Mus musculus with 6 samples.

Results

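Insulin-like growth factors and their binding proteins were followed in mammary glands of female bitransgenic mice at 10 weeks and at 5 weeks of age. The family was taken as 9 genes, Igf1, Igf2, Igf1r and Igfbp2 to Igfbp7, found by their single gene symbol in the platform annotation. All 9 genes were on the array, with 26 of its 45037 non-control probe sets, and 24 of these 26 passed a filter on dim signals. Both ages carried the same transgenes, from a cross between what the labels call the LH mouse and the MMTV-neu mouse. In MMTV-neu mice the neu oncogene stands under the promoter of mouse mammary tumour virus, which is active mainly in mammary epithelium. The samples hold no gland without transgenes, so only age is compared, and it cannot be told apart from time under the transgenes. Each age had 3 arrays of whole gland RNA, and each array held RNA pooled from 3 animals, for 9 animals per age. Strain, oestrous stage and housing are not given in the sources used here.

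IGF1 and IGF2 are secreted growth factors that act through the receptor tyrosine kinase IGF1R. The binding proteins hold most of the ligand outside cells, and proteases free it again by cutting them. In the mouse mammary gland, growth hormone acts on the stroma, which makes IGF1, and IGF1 drives the growth of ducts during puberty. Binding proteins differ in their ligand preference and in the cells that make them, and IGFBP5 is best known in the gland for its abundance during involution after weaning.

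The arrays gave 1 linear signal intensity per probe set, a measure of brightness in arbitrary units. Array medians lay between 156.4 and 172.5. Signals were taken as log2(signal + 32) and compared with limma, at a Benjamini-Hochberg adjusted p of 0.05 over 27022 probe sets. In the fit across all genes 4428 of 13002 genes differed between the ages (34.1%), 1992 higher (15.3%) and 2436 lower (18.7%) at 10 weeks. Each gene is given by its brightest probe set unless its other probe sets are named. Because probe sets bind with different strength, signals are compared between ages within a probe set and not between genes. Nothing in the labels says how the animals of different pools were related, and the p-values measure only the spread between pools.

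Of the 9 genes, 6 were lower at 10 weeks (Igf1, Igf1r, Igfbp2, Igfbp3, Igfbp6 and Igfbp7), 1 was higher (Igfbp5) and 2 did not pass the test on their brightest probe set (Igf2 and Igfbp4). The 9 log2 differences had a median of -0.61 and ran from -1.59 for Igfbp6 to 0.55 for Igfbp5, while the median over all genes tested was -0.0037. Among all genes tested, 18.7% were lower and 15.3% higher. Over probe sets, 16 of 24 were lower, against 15.3% of all probe sets tested, and 2 of 24 were higher, against 13.4%. Most of the 9 genes have several of these probe sets, so the 24 are not independent of each other. On 21 of the 24 the ages did not overlap, which was so for 45.1% of all probe sets tested, and by brightest probe set this was so for 8 of the 9 genes, against 50.3% of all genes. Since whole glands were used, fewer cells of a type and less RNA per cell cannot be told apart in any of these differences.

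**Figure D1:**
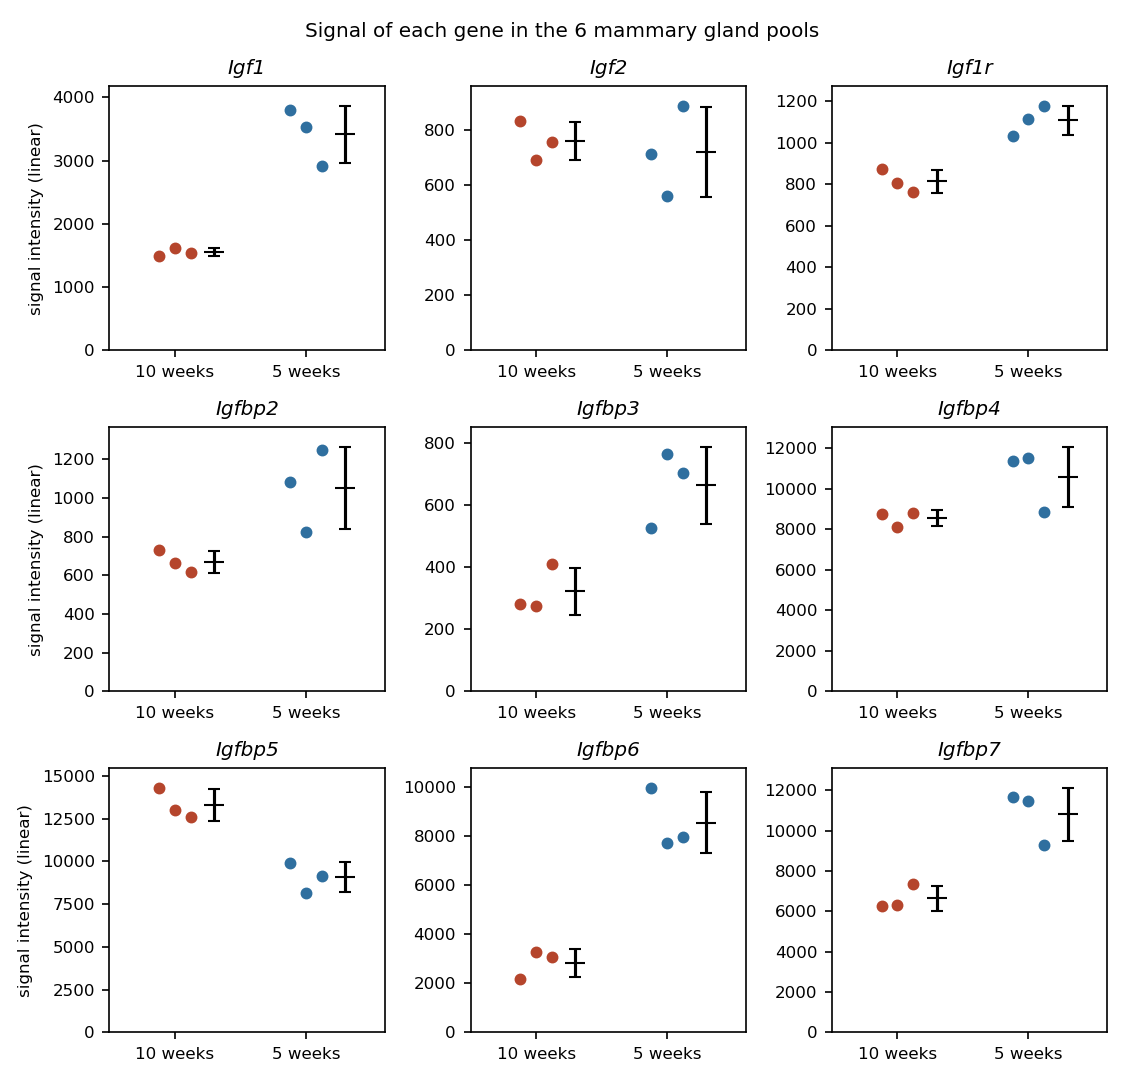
Linear signal intensity (vertical axes, from 0) of the brightest probe set of each of the 9 genes in the 3 pools at 10 weeks (red) and the 3 pools at 5 weeks (blue), with the mean and SD in black. The ages separate for 8 genes and overlap for Igf2, and Igfbp5 is the gene whose 10-week pools lie on top.

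The promoter sequences of 4 genes are shown because these genes cover the patterns in the family, namely a ligand that was lower, a pair of neighbouring genes that moved in opposite directions, and a binding protein whose probe sets disagreed in size. Each runs from 250 bases before to 50 bases after a start of the gene, from RefSeq on GRCm38.p6. Capitals mark matches, on both strands, to TATAAA (the TATA box) or GGGCGG (the GC box).
Igf1, chr10:87860861-87861160, plus strand: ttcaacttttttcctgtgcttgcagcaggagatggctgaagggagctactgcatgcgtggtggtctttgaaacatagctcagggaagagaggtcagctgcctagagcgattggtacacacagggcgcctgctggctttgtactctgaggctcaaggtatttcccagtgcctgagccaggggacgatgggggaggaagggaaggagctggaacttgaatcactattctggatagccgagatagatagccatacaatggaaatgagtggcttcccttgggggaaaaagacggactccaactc
Igfbp2, first of 2 starts, chr1:72824230-72824529, plus strand: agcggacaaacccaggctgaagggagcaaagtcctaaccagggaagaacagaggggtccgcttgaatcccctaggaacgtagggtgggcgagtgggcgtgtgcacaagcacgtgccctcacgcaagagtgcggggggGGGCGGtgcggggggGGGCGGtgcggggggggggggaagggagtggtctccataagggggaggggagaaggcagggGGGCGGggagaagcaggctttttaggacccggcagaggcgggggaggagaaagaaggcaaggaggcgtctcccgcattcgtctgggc
Igfbp5, chr1:72874816-72875115, minus strand: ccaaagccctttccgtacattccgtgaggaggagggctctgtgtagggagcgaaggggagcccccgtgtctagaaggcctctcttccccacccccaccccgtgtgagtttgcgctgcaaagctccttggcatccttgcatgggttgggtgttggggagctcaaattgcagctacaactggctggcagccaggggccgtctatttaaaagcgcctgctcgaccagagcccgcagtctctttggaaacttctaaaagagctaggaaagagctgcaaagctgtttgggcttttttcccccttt
Igfbp4, chr11:99040994-99041293, plus strand: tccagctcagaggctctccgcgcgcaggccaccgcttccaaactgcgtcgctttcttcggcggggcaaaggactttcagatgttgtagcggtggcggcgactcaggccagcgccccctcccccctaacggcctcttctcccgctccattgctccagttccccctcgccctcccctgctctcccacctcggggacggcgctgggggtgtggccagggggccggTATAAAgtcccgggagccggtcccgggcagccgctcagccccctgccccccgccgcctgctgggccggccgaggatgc

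The RefSeq table held 13 such windows for the 9 genes, among 32851 in all. TATAAA was found in 13.6% of all windows and in 2 of the family's genes, Igfbp4, where the match began 28 bases before the start, and Igfbp6, where it lay on the minus strand. GGGCGG was found in 35.7% of all windows, 3 times at the first start of Igfbp2 and 4 times in Igfbp7, and also in Igf1r and at 2 of the 4 Igf2 starts. The windows of Igf1 and Igfbp5 held neither. TTCNNNGAA, the letters bound by STAT factors (searched on both strands), was in 8.3% of all windows and in none of the family's. G and C made up 52.3% of the bases in the Igf1 window, 56.3% in that of Igfbp5 and 76% in that of Igf1r, with a median of 52.7% over all windows. Neither motif in capitals was common to all 6 genes that were lower at 10 weeks.

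Igf1, the ligand that relays growth hormone to the ducts, was lower at 10 weeks. Its brightest probe set, 1434413_at, had signals of 1499.2, 1617.2 and 1537.3 in the 10-week pools, against 3806.1, 3525.1 and 2919 in the 5-week pools. The highest 10-week pool lay well below the lowest 5-week pool, and the spread at 10 weeks was small. The log2 difference was -1.12 ± 0.12 (SE, n = 3 each, limma adjusted p = 0.000269).

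The other 3 probe sets of Igf1 gave the same direction. On 1452014_a_at the mean signal was 870.8 ± 105.5 at 10 weeks and 2642 ± 121.1 at 5 weeks (SD, n = 3 each), a log2 difference of -1.57 ± 0.12 (SE, adjusted p = 6.15e-05 by limma). The probe sets 1437401_at and 1419519_at gave -1.21 and -1.04, with limma adjusted p-values of 0.00462 and 0.000499. On none of the 4 did the ages overlap.

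Igf2, the second ligand, which in mouse mammary epithelium mediates part of the response to prolactin, showed no difference that passed the test. Its probe set 1448152_at had signals of 831.8, 691.3 and 754.1 in the 10-week pools, against 713.3, 560.3 and 887.5 in the 5-week pools. The highest and the lowest of the 6 values both belonged to 5 weeks. The log2 difference was 0.09, with a 95% interval from -0.29 to 0.48 (limma adjusted p = 0.724). Changes up to those bounds lie within the error of these arrays. Without 5-week pool 2, the lowest, the estimate changed sign to -0.07 and still did not pass the test. The other Igf2 probe set, 1415931_at, was among those left out as dim, with signals of 20.9 to 94.1 at 10 weeks and 10.8 to 34.4 at 5 weeks.

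Igf1r encodes the receptor for both ligands, and its brightest probe set was modestly lower at 10 weeks. On 1452982_at the signals were 872.7, 805.2 and 763.7 at 10 weeks and 1033.9, 1112.9 and 1176.9 at 5 weeks. The ages did not overlap, and the log2 difference was -0.43 ± 0.11 (SE, n = 3 each, limma adjusted p = 0.0197). This call rested on few pools. When a pool was left out, limma's adjusted p was 0.0574 without 10-week pool 2, 0.0658 without 10-week pool 3, 0.0515 without 5-week pool 2 and 0.0554 without 5-week pool 3, with differences of -0.39 to -0.43.

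The 5 probe sets of Igf1r did not give a single answer. Differences on 1426565_at and 1428967_at were -0.36 and -0.35 and did not pass the test, with limma adjusted p-values of 0.0862 and 0.193. On the first of them the ages did not overlap, with 290.6 to 333.2 at 10 weeks and 372.4 to 448.5 at 5 weeks. On 1446303_at the difference was 0.01. On 1452108_at all 3 pools at 10 weeks (115.9 to 123.9) lay above those at 5 weeks (79.8 to 101.4). Its difference of 0.36 did not pass the test either (limma adjusted p = 0.156). The cut of the filter lay at a signal of about 102.5, so 1452108_at passed it only through its 10-week pools. Its direction is therefore given no weight. With the 5 probe sets averaged, 1452108_at included, the difference was -0.15 (limma adjusted p = 0.333). Of the 5 probe sets, 1 passed the test, and 3 had lower estimates at 10 weeks.

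Among the binding proteins, Igfbp6 had the largest difference of the family. IGFBP6 binds IGF2 with higher affinity than IGF1. Its single probe set had signals of 2192.8, 3274.8 and 3062.9 in the 10-week pools, against 9979.1, 7712.8 and 7963.6 in the 5-week pools. The highest 10-week value was less than the lowest 5-week value by a wide margin. The mean was 2844 ± 573 at 10 weeks and 8552 ± 1242 at 5 weeks (SD, n = 3 each), a log2 difference of -1.59 ± 0.16 (SE, limma adjusted p = 0.000245). Of the 13002 genes tested, 274 (2.11%) had a more negative difference.

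Igfbp3 encodes the main carrier of IGFs in blood, and it is also made by tissues. It was lower at 10 weeks, with signals of 282.4, 274.6 and 411.1 on 1458268_s_at, against 526.7, 766.5 and 702.8 at 5 weeks. The ages did not overlap, and the log2 difference was -0.98 ± 0.19 (SE, n = 3 each, limma adjusted p = 0.006). The second probe set, 1423062_at, was dimmer and gave -1.45 ± 0.34 (SE, adjusted p = 0.0123 by limma), with 10-week pool 1 the lowest at 63.8.

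Igfbp7 encodes a related protein with low affinity for IGFs that is abundant around blood vessels. Its brightest probe set, 1423584_at, had signals of 6261.1, 6325.8 and 7358.9 at 10 weeks, against 11651.7, 11473.4 and 9259.7 at 5 weeks. All 3 pools at 10 weeks were lower, and the log2 difference was -0.69 ± 0.11 (SE, n = 3 each, limma adjusted p = 0.00248). The dimmer 1423585_at gave -0.52 (limma adjusted p = 0.0384). That second call was lost when no probe set was filtered out (adjusted p = 0.0781). The third, 1437804_at, was left out as dim, at a mean of 46.7 at 10 weeks and 46.1 at 5 weeks.

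Igfbp2, which encodes a binding protein that can also engage integrins, was lower at 10 weeks on its 1 probe set. Its signals were 730.5, 665.9 and 616.9 at 10 weeks, against 1083.2, 824.9 and 1249.9 at 5 weeks. The ages did not overlap, although 5-week pool 2 lay close to the 10-week pools. The log2 difference was -0.61 ± 0.16 (SE, n = 3 each, limma adjusted p = 0.0207). The call ended when 1 of 4 pools was left out, with a limma adjusted p of 0.0571 without 10-week pool 2, 0.0673 without 10-week pool 3, 0.0623 without 5-week pool 1 and 0.0616 without 5-week pool 3, and differences of -0.48 to -0.61.

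Igfbp5 was the 1 family member that was higher at 10 weeks, and both of its probe sets showed it. On 1452114_s_at the signals were 14314.1, 12998.7 and 12573 at 10 weeks, against 9925.5, 8170.7 and 9148.6 at 5 weeks. On 1422313_a_at they were 5721, 6458.3 and 4980.4 at 10 weeks, against 2934.9, 1997.7 and 3051.4 at 5 weeks. All 3 pools at 10 weeks lay above all 3 at 5 weeks on both. The log2 differences were 0.55 ± 0.10 (SE, n = 3 each, limma adjusted p = 0.0036) and 1.11 ± 0.17 (SE, adjusted p = 0.00158 by limma). The smaller of them came from the probe set with the higher signals, which reached 14314.1 on an array set whose brightest probe sets read 15339.6 to 22312.4.

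Igfbp2 and Igfbp5 are next to each other in the mouse genome, as the promoter positions show, and moved in opposite directions, with Igfbp2 lower and Igfbp5 higher at 10 weeks. Of the 18 protein-coding genes nearest to a family member on either side in the RefSeq table, these 2 included, 3 were higher, 2 were lower, 7 did not pass the test, 4 were left out as dim and 2 were not analysed here. Over all genes 15.3% were higher and 18.7% lower. The 12 neighbours tested are too few to set their 3 higher and 2 lower apart from these shares. Igfbp5 among the higher and Igfbp2 among the lower are also family members themselves. Besides Igfbp5, Tns3 beside Igfbp3 (log2 difference 0.78, limma adjusted p = 0.00464) and Ins2 beside Igf2 (1.59, adjusted p = 0.00124) were higher, while Top2a beside Igfbp4 was lower (-0.65, adjusted p = 0.00469), as was Igfbp2. Ins2 was dim, at a mean of 240.9 at 10 weeks and 61.3 at 5 weeks. The filter's cut corresponded to a signal of about 102.5, so Ins2 passed it only through its 10-week pools. Tns3 encodes a focal adhesion protein, Ins2 insulin and Top2a a DNA topoisomerase of dividing cells. Igfbp3 itself was lower, so it and Tns3 also moved in opposite directions.

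**Figure D2:**
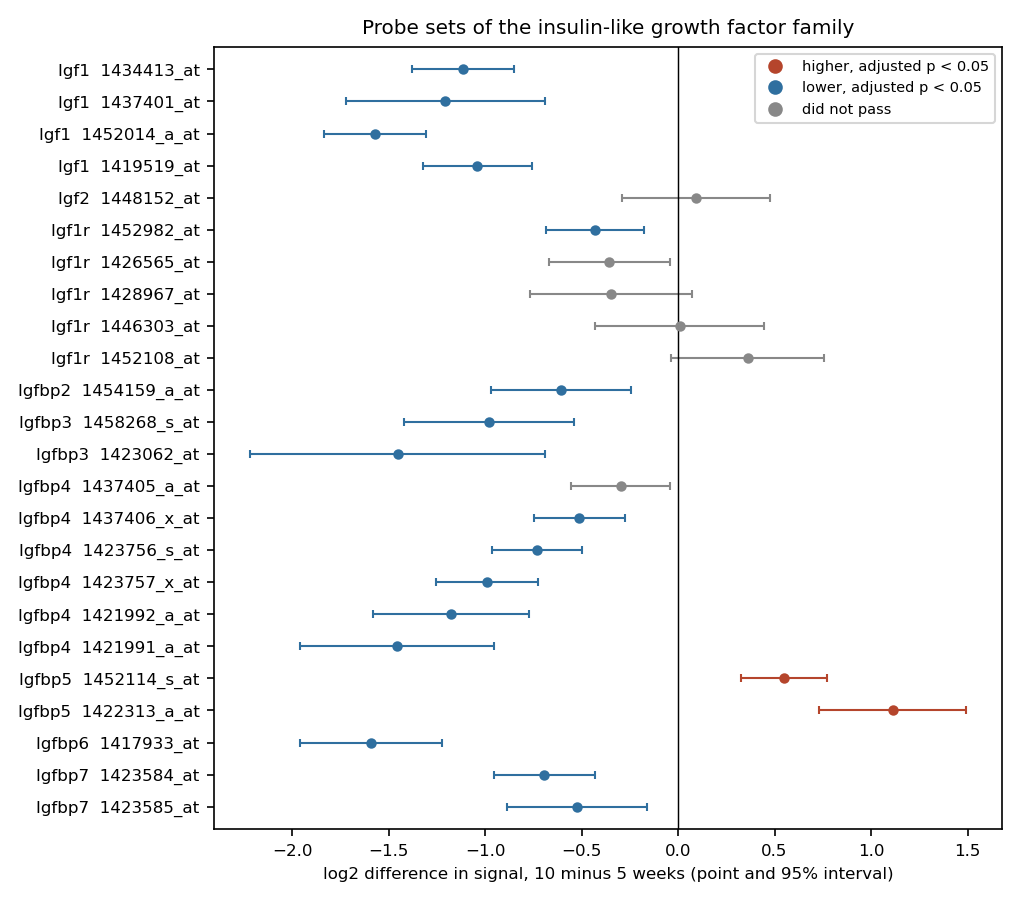
Log2 difference in signal, 10 minus 5 weeks (horizontal axis), of the 24 probe sets that passed the filter, with the 95% interval from limma; probe sets of a gene run down the page by falling mean signal. The 4 Igf1 probe sets all lie left of 0, the 5 of Igf1r lie on both sides of it, those of Igfbp4 move away from 0 down the page, and the 2 of Igfbp5 lie right of 0.

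Igfbp4 encodes a binding protein that mostly holds IGF back until the protease PAPPA cuts it. Its 6 probe sets all gave lower signals at 10 weeks, with no overlap between the ages, but the size differed. On the brightest, 1437405_a_at, the signals were 8737.3, 8112.9 and 8822.1 at 10 weeks, against 11399.6, 11512.5 and 8861 at 5 weeks. 5-week pool 3 lay just above the highest 10-week pool, and the log2 difference of -0.30 ± 0.11 (SE, n = 3 each) did not pass the test (limma adjusted p = 0.0815). Without 5-week pool 3 it was -0.42 and passed (adjusted p = 0.0107 by limma).

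The other 5 probe sets of Igfbp4 passed the test. From the brightest to the dimmest, the 6 log2 differences were -0.30, -0.51, -0.73, -0.99, -1.18 and -1.46, a run without exception. On the dimmest, 1421991_a_at, the signals were 604.2, 443.2 and 680.5 at 10 weeks, against 1954.7, 1859 and 1153 at 5 weeks (limma adjusted p = 0.0016). 5-week pool 3 was the lowest of its age on all 6 probe sets. With the 6 averaged, the gene was lower, with a log2 difference of -0.86 ± 0.13 (SE, limma adjusted p = 0.00205). The gene's call thus depends on which probe set stands for it. Whether compression of bright signals or probe sets that detect different transcripts play a part was not tested.

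**Figure D3:**
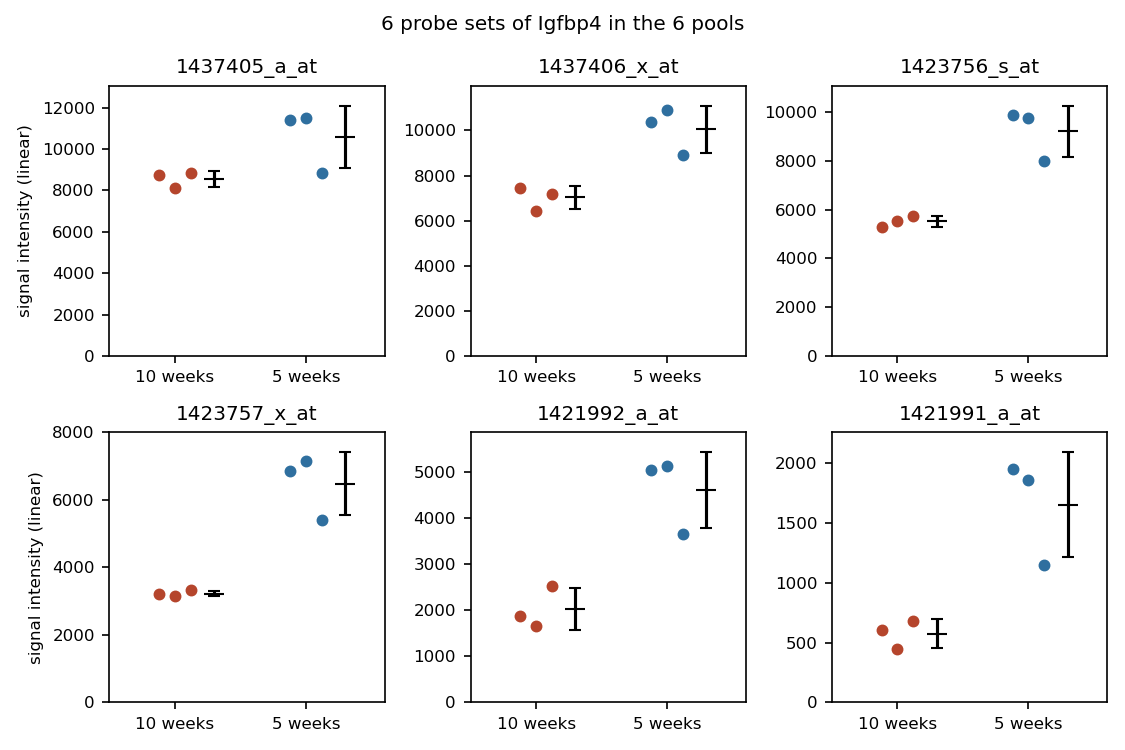
Linear signal intensity (vertical axes, from 0) of the 6 Igfbp4 probe sets in the 3 pools at 10 weeks (red) and the 3 pools at 5 weeks (blue), with the mean and SD in black. The 10-week pools are lower on each, and the gap widens relative to the level from the brightest probe set (top left, log2 difference -0.30) to the dimmest (bottom right, -1.46).

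Other genes of IGF action were taken from a list of 24, of which 22 were measured and 17 passed the filter. Of these 17, 8 were lower and 4 higher at 10 weeks, with a median log2 difference of -0.30, against 18.7% lower, 15.3% higher and a median of -0.0037 over all genes tested. Igf2bp2 and H19 were not analysed here.

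By brightest probe set, the largest difference on the list was that of Igfals, which encodes the acid-labile subunit that joins IGF and IGFBP3 in the large complex of the circulation. Its signals were 4702.8, 3923.5 and 4001.6 at 10 weeks, against 1122.5, 748.8 and 862.7 at 5 weeks. The ages were far apart, and the log2 difference was 2.18 ± 0.15 (SE, n = 3 each, limma adjusted p = 4.93e-05). Igf2r, which encodes the receptor that takes up IGF2 for degradation, was higher as well, at 2014 ± 330 at 10 weeks and 1256 ± 85.2 at 5 weeks (SD, n = 3 each), a difference of 0.66 ± 0.14 (SE, adjusted p = 0.00746 by limma). Its second probe set gave 0.41. Igf2bp3, which encodes a protein that binds Igf2 mRNA, was higher by 0.72 (limma adjusted p = 0.00998). Its second brightest probe set gave 1.35, while 2 dimmer ones gave -0.14 and 0.04 and did not pass the test.

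The genes that act on binding proteins did not move one way. Htra1, which encodes a secreted serine protease that can cut binding proteins, was lower, with signals of 2641.5, 3095.4 and 2717.1 at 10 weeks against 6790.1, 7170.9 and 7020.6 at 5 weeks. The difference was -1.30 ± 0.09 (SE, n = 3 each, limma adjusted p = 5.56e-05). Pappa, the protease gene whose product cuts IGFBP4, was also lower (-0.61, limma adjusted p = 0.0301), at a dim mean of 142.5 at 10 weeks and 232.8 at 5 weeks. Its call ended when 10-week pool 2 (limma adjusted p = 0.0787) or 10-week pool 3 (0.0943) was left out, or any 1 of 5-week pools 1 (0.0534), 2 (0.0844) and 3 (0.069), and with no filter (0.0631). On another Pappa probe set, 1427633_a_at, the ages overlapped and the difference of -0.33 did not pass the test (limma adjusted p = 0.219). The tested Pappa probe sets averaged gave -0.47 (limma adjusted p = 0.046). The stanniocalcins inhibit PAPPA, and their 2 genes moved in opposite directions. Stc1 was higher (0.70 ± 0.14, SE) and Stc2 was lower (-0.97 ± 0.13, SE), on their brightest probe sets, with limma adjusted p-values of 0.00601 and 0.000926. The other 2 probe sets of Stc2 gave -2.31 and -1.18, both passing the test, and the 3 averaged gave -1.49.

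Upstream of Igf1, the growth hormone receptor gene Ghr was lower, at 6131 ± 506 at 10 weeks and 9749 ± 989 at 5 weeks (SD, n = 3 each), a difference of -0.66 ± 0.11 (SE, limma adjusted p = 0.00203). Its other 2 probe sets gave -1.18 and -0.77. Socs2, whose product restrains growth hormone signalling and is induced by it, was lower, with a log2 difference of -1.02 on its brightest probe set (limma adjusted p = 0.00209). Its probe set 1449109_at also gave -1.02, while 1442586_at gave -0.19 and 1446085_at -0.64, neither passing the test (limma adjusted p = 0.472 and 0.0523). The tested Socs2 probe sets averaged gave -0.72. Jak2 and Stat5b, which carry the growth hormone signal inside the cell, had differences of 0.27 and 0.11 and did not pass the test (limma adjusted p = 0.111 and 0.541). Neither did their second probe sets, at -0.05 for Jak2 and 0.40 for Stat5b (limma adjusted p = 0.801 and 0.0921). On that of Stat5b the ages did not overlap.

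Downstream of the receptor, Irs1, the docking protein gene of insulin and IGF receptors, had signals of 3244.3, 3220.6 and 2861.6 at 10 weeks, against 5375.6, 4392.6 and 5192.8 at 5 weeks, a difference of -0.67 ± 0.11 (SE, n = 3 each, limma adjusted p = 0.00207). Grb10 and Grb14, whose products bind these receptors and dampen their signal, were lower, with log2 differences of -1.22 and -1.63 on their brightest probe sets (limma adjusted p = 0.000241 and 0.0128). The other 2 probe sets of Grb10 gave -0.54, which passed the test, and -0.60, which did not, and the 3 averaged gave -0.79. Insr, the insulin receptor gene, Irs2 and Shc1 had differences of -0.12, 0.27 and -0.30 and did not pass the test (limma adjusted p = 0.465, 0.387 and 0.0565). The second tested probe sets of Insr and Shc1 gave 0.27 and -0.36 and did not pass either (limma adjusted p = 0.273 and 0.138). For Insr this was the opposite direction, with no overlap between the ages. Igfbp1, Insrr, Pappa2, Adam28 and Igf2bp1 were left out as dim. Igfbp1, a binding protein gene best known from liver, had signals of 67.6 to 84.7 at 10 weeks and 11.1 to 44.5 at 5 weeks.

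**Figure D4:**
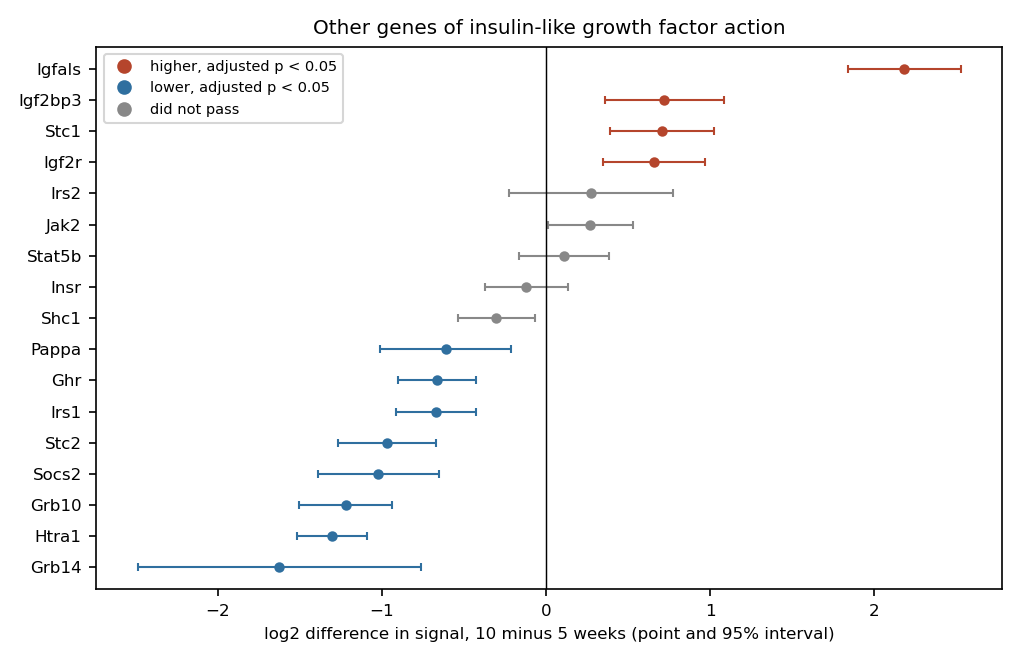
Log2 difference in signal, 10 minus 5 weeks (horizontal axis), of the 17 genes of IGF action outside the family that passed the filter, by their brightest probe set, with the 95% interval from limma. Igfals stands alone on the right at 2.18, 3 further genes are higher, and 8 genes from Pappa down to Grb14 (-1.63) are lower.

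Proteins that share the binding proteins' N-terminal module made up a further list of 10 genes, of which 6 passed the filter. Of these, 3 were lower, against 18.7% of all genes, and 1 was higher, against 15.3%. The matricellular genes Ccn1 and Ccn5 were lower, with log2 differences of -1.24 and -1.44 (limma adjusted p = 0.000503 and 0.000151), and Ccn2 was higher, with signals of 1007.7, 1364.1 and 1797.4 at 10 weeks against 710.3, 435.8 and 744.4 at 5 weeks (log2 difference 1.10 ± 0.24, SE, n = 3 each, limma adjusted p = 0.01). Crim1, which encodes a membrane protein that binds growth factors, was lower, with a log2 difference of -0.50 (limma adjusted p = 0.046), a call that ended when 10-week pool 2 (0.124) or 10-week pool 3 (0.139) was left out, or any 1 of 5-week pools 1 (0.077), 2 (0.128) and 3 (0.0737). It also ended with no filter (0.0693), quantile normalization (0.0825), median centring (0.0582) or no variance trend (0.0548). Ccn3 and Kazald1 had differences of 0.03 and -0.45 and did not pass the test. Kazald1 had a mean of 85.1 at 10 weeks and 128.8 at 5 weeks. With the filter's cut at a signal of about 102.5, it was tested only because of its 5-week level. Esm1, Ccn4, Ccn6 and Igfbpl1 were left out as dim, and of these Esm1, an endothelial gene, had signals of 1.5 to 13.1 at 10 weeks and 77 to 147.7 at 5 weeks, while Ccn4 had 17.9 to 39 at 10 weeks and 144.1 to 236.5 at 5 weeks.

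Markers of several cell types of the gland moved beside the family, and their counts stand against 18.7% of all genes lower and 15.3% higher. Sums of linear signals weigh the brightest markers of a list most, while the counts weigh each marker alike. Fibroblast markers, among them the collagen gene Col1a1, were lower in 6 of 8 cases and higher in none. Their summed signal was 51978 to 58125 at 10 weeks and 77193 to 92459 at 5 weeks, to which the dimmest, Fbln1, gave a mean of 935. Endothelial markers were lower in 6 of 7 cases, with sums of 4137 to 4966 at 10 weeks and 7190 to 8263 at 5 weeks. Adipocyte markers were lower in 4 of 7 cases, with sums of 34603 to 44668 at 10 weeks and 48981 to 59165 at 5 weeks. Pericyte and smooth muscle markers were lower in 3 of 5 cases, with sums of 6078 to 7537 at 10 weeks and 10492 to 13963 at 5 weeks. This list was Pdgfrb, Rgs5, Cspg4, Notch3 and Des, and its log2 differences ran from -2.62 to -0.19 with a median of -0.67. The sum was lowest in 10-week pool 1 and, within 5 weeks, in pool 2, as was that of skeletal muscle markers. Whether muscle adds to this sum, for instance through Des, was not tested. Of 7 luminal epithelial markers 5 were higher, with sums of 54242 to 62121 at 10 weeks and 29847 to 37670 at 5 weeks. Of 6 basal epithelial markers 3 were higher and 1 lower, with sums of 20695 to 22188 at 10 weeks and 17502 to 18678 at 5 weeks. Their part in the differences of Igf1, Igf1r and the binding protein genes was not tested.

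Skeletal muscle markers had a median log2 difference of -2.14, with no overlap between the ages in 8 of 8 cases (50.3% of all genes), and were lower by the adjusted test in 3 of 8 (18.7% of all genes) and by an unadjusted p under 0.05 in 7. They summed to 5567 in 10-week pool 1, to 39842 and 37308 in 10-week pools 2 and 3, and to 48602 to 87813 at 5 weeks. Without 10-week pool 1 the family's counts were the same as with it, 6 lower and 1 higher. Over all genes, that fit gave 1871 lower and 1405 higher of 13008. Skeletal muscle sums of the remaining 10-week pools still lay below those at 5 weeks. The part of muscle in the family's differences was not tested. Of 6 macrophage markers 3 were lower (18.7% of all genes) and 2 higher (15.3%), with sums of 18401 to 20128 at 10 weeks and 20497 to 20815 at 5 weeks. Of 5 lymph node and B cell markers none passed limma's test at the adjusted threshold and 1, Cd79b, had an unadjusted p under 0.05. Their sums were 382.7, 633.4 and 1358 at 10 weeks and 531.4, 3546 and 644.1 at 5 weeks, highest in 5-week pool 2. No marker of the 9 lists was at 0 or under the filter on dim signals in its mean over the pools.

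**Figure D5:**
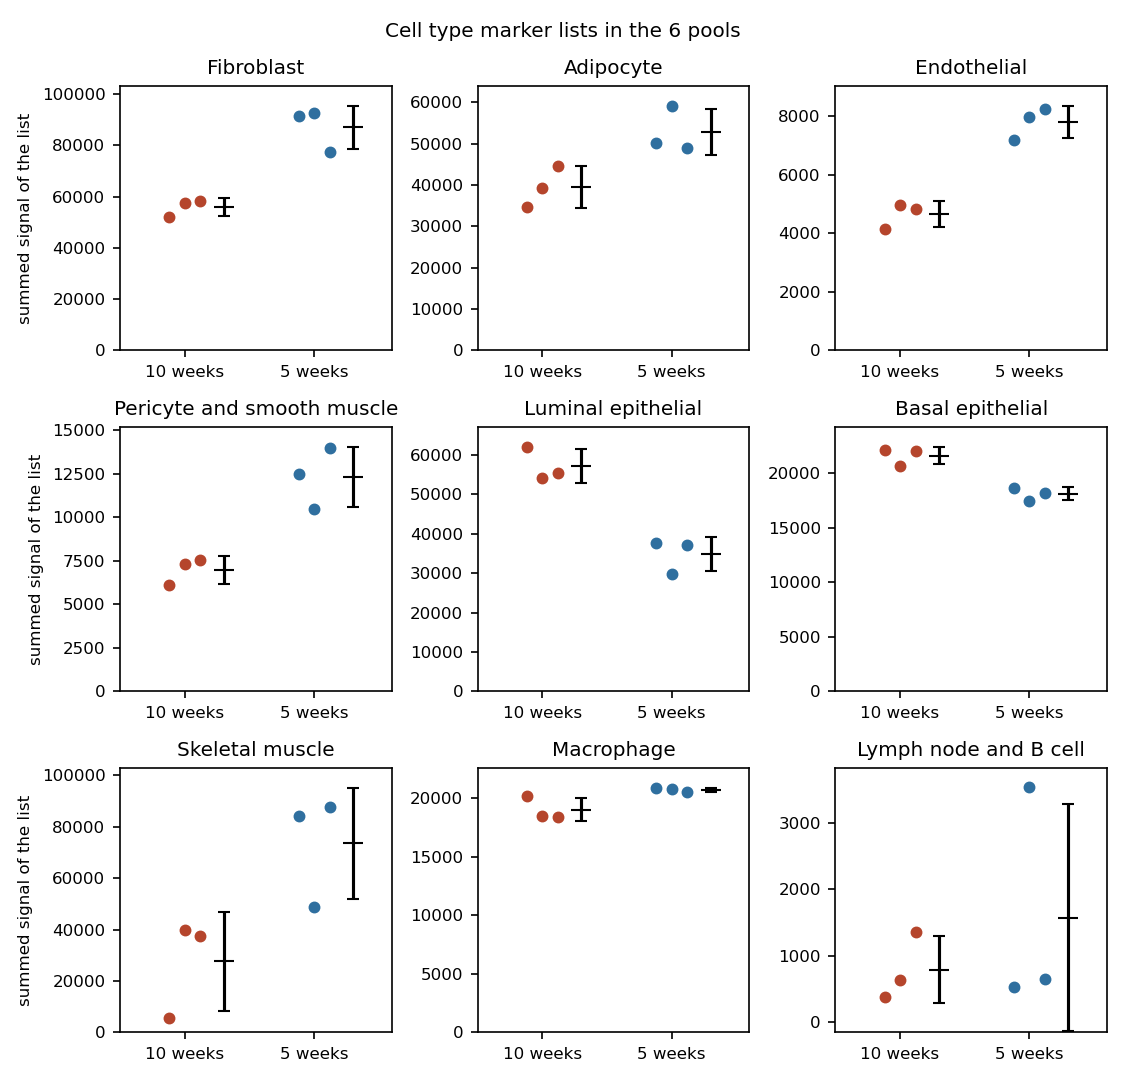
Summed linear signal (vertical axes) of 9 lists of cell type markers, 1 probe set a gene, in the 3 pools at 10 weeks (red) and the 3 pools at 5 weeks (blue), with the mean and SD in black. The fibroblast, adipocyte, endothelial and pericyte sums are lower and both epithelial sums higher at 10 weeks, 10-week pool 1 is low for skeletal muscle (5567), and 5-week pool 2 is high for lymph node genes (3546).

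The genes whose profile over the 6 pools was most like that of Igf1, by the root mean square difference of log2 values after each gene's own mean was subtracted, were Col1a1 (0.063), the potassium chloride cotransporter gene Slc12a4 (0.068) and the gelatinase gene Mmp2 (0.07), among 13002 genes. Col1a1, a collagen chain, had signals of 5908.6, 6800.7 and 6392.3 at 10 weeks, against 13983.2, 14512.6 and 11425.5 at 5 weeks. The genes most like Igfbp6 were the fibulin gene Fbln2 (0.095), the collagen gene Col5a2 (0.097) and Zeb1 (0.106), which encodes a transcription factor of mesenchymal cells. Their log2 differences were -1.46, -1.47 and -1.56, against -1.59 for Igfbp6. With 6 pools of 2 ages, any gene with a step of like size between the ages scores as alike.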

How the data were processed

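Total RNA of mammary gland was labelled with biotinylated UTP, per the labels. Each probe set has 1 deposited intensity on a linear scale, and the authors' signal algorithm and any detection call or scan batch are not given in the sources used here. With 2% of probe sets trimmed from either end, the lowest of the 6 array means was 500 after rounding. Of 45101 probe sets, 64 controls were left out.

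Single symbols of the platform annotation (34945 probe sets) were brought up to date by gene identifier (RefSeq, GRCm38.p6), a source used otherwise only for neighbours and promoters. Intensities were floored at 1 and transformed as log2(value + 32), a scale on which differences of dim genes come out too small. Array medians lay within 0.118 on that scale, so no normalization was added. The dimmest 40% by mean were not tested. limma 3.58.1 in R 4.3.3 (lmFit, eBayes with a variance trend, age alone, two-sided) was run on 27022 probe sets with Benjamini-Hochberg adjustment over all of them, and the steps were tested on simulated data. The probe set with the highest mean stood for its gene. With 3 arrays an age, the number of arrays limits the precision.

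Named were all family members with their probe sets, all genes of the 2 related lists that were measured, called neighbours of members, and the 3 genes most like Igf1 and most like the member with the largest difference. Members and lists were chosen with earlier results of these data known. Alternatives changed the offset, filter, normalization, variance model, array weights and probe set choice, and left out each pool. Figures used matplotlib 3.10.9 under Python 3.11.15.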

Additional observations from a re-analysis of the deposited data

How the results depend on the processing

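Of 144 values of the 9 family genes under 16 alternatives, 131 kept the outcome of the test and 143 the sign, the exception being Igf2 without 5-week pool 2 (-0.07), which passed the test in neither case. The calls of Igf1, Igfbp3, Igfbp5, Igfbp6 and Igfbp7 held under all 16, with differences of -1.23 to -1.03, -1.22 to -0.86, 0.38 to 0.83, -1.70 to -1.41 and -0.81 to -0.61. The calls of Igf1r and Igfbp2 were lost without certain pools, as given with each gene, and that of Igf1r also with averaged probe sets (-0.15). Igfbp4 passed the test with quantile normalization (-0.43), array weights (-0.33), averaged probe sets (-0.86) and without 5-week pool 3 (-0.42). Leaving out 1 pool at a time gave 4 to 6 family genes and 13 to 15 family probe sets lower, and 1 gene and 2 probe sets higher. Over all genes it gave 1405 to 1759 higher and 1871 to 2036 lower. No count of calls moved by over 1.5 times under any alternative. No paired analysis was possible because replicate numbers follow accession order and pair no pools. Averaged probe sets moved Stc2 to -1.49, Grb10 to -0.79 and Socs2 to -0.72. The number of arrays limits the precision, and compression of bright signals was not tested.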
